A study of Mus musculus with 35 samples.

Results

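Acetylation of lysine 27 of histone H3 (H3K27ac) was compared between the cells that a reprogramming experiment starts from and the cells that it aims at. The comparison rests on 4 of the 35 libraries of the series: 2 H3K27ac peak lists of mouse embryonic fibroblasts (MEF) and 2 of embryonic stem cells (ESC). Peaks on chromosomes 1 to 19 and X of the 4 lists were merged into 156338 regions. A region was called MEF-specific when both MEF lists and no ESC list had a peak in it, ESC-specific in the converse case, and common when all 4 lists had one. By this rule 42860 regions were MEF-specific, 33835 were ESC-specific and 16228 were common. The remaining 63415 regions, 40.6% of all, had a mixed pattern and are called undecided. Genes were then ranked by the number of regions of each class in their surroundings. These reach 50 kb to each side of a gene's start, or of the whole gene where no start is given.

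The MEF came from a mouse of strain C57BL/6 x 129 and genotype OKSM Col1a1/M2rtTA ROSA26. That mouse carries a doxycycline-inducible cassette of Pou5f1, Klf4, Sox2 and Myc at Col1a1 and the transactivator that drives it at Rosa26. The MEF were kept in MEF medium without doxycycline and were not sorted. The input library of MEF, not analysed here, is labelled with doxycycline at 1 µg/ml and ascorbic acid at 50 µg/ml. The MEF H3K27ac libraries carry no such label. The ESC were the line V6.5, labelled with the same strain, in medium with serum and LIF, also unsorted. They were grown on irradiated feeder cells, so that chromatin of another cell type can be in the ESC samples. All 4 libraries belong to 1 batch, DG-3458, and within it the replicates are numbered 1 and 2 in each group. The design text calls the replicates biological, but no label names embryos or cultures, and the spread between libraries may be partly technical. Peak lists of 3 other stages, namely bulk cells of day 3 and SSEA1-positive cells, sorted by this surface antigen, of days 6 and 9, and KLF4 peak lists were not used to define the classes. The day lists came from these MEF under doxycycline and ascorbic acid, and the remaining KLF4 lists from V6.5 ESC in serum or in 2i, the latter being medium with inhibitors of MEK and GSK3.

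H3K27ac is deposited by the acetyltransferases p300 and CBP and marks active promoters and enhancers. Promoters of widely used genes carry it in most cell types, while enhancers carry it in a cell-type-dependent way and often lie in groups around the genes that define a cell. Fibroblasts are known for enhancers at collagen, matrix and contractile genes. ESC are known for enhancers at the genes of the naive pluripotency network, among them Pou5f1, Nanog, Sox2, Esrrb and the KLF factors.

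The lists of a group resembled each other far more than those of the other group. The Jaccard index, the bases covered by both lists over the bases covered by either, was 0.709 for the 2 MEF lists and 0.665 for the 2 ESC lists. Between a MEF list and an ESC list it lay between 0.152 and 0.154. The MEF lists held 88070 and 88347 peaks, and the ESC lists 81971 and 81231. They covered 82.8 and 83.5 Mb in MEF, and 66.3 and 62.3 Mb in ESC. The deposited q-value was 0.01 or lower for 69.7% and 66.9% of the ESC peaks, against 89.4% and 89.7% of the MEF peaks. Read depth and the efficiency of the immunoprecipitation are unknown for these lists. Therefore the absence of a peak does not show the absence of acetylation.

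The common regions were broader than the specific regions and lay at gene starts in a larger share of cases. Most specific regions lay away from gene starts. Within 1 kb of the start of a protein-coding gene lay 52.2% of the common regions, 3.11% of the MEF-specific and 3.98% of the ESC-specific regions. When all regions were moved by 1 Mb, these shares were 4.99%, 2.57% and 2.86%. Median widths were 2029 bp for common, 796 bp for MEF-specific and 729 bp for ESC-specific regions. Regions with a peak in both MEF lists and 1 ESC list had a median of 1142 bp. Merging joins the peaks of all lists, so width can grow with the number of lists, and the part of this was not tested. The median gap to the next region of the same class was 10.3 kb for MEF-specific, 8.88 kb for ESC-specific and 34.8 kb for common regions. Gaps also depend on the number of regions in a class, and the common class is the smallest. The undecided regions had a median width of 293 bp. Of them, 29367 had a peak in 1 ESC library alone and 29352 in 1 MEF library alone.

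**Figure D1:**
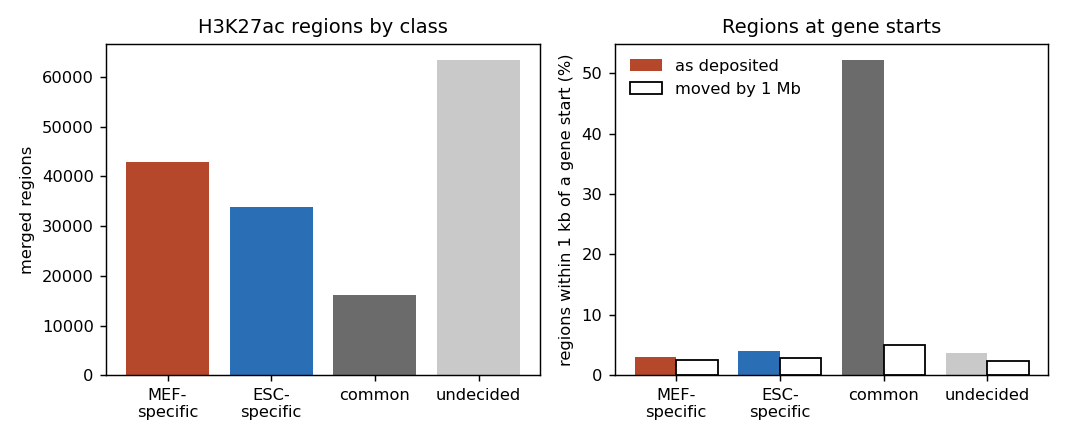
Number of merged H3K27ac regions in each class (left) and percent of the regions of each class within 1 kb of a protein-coding gene start (right), for the regions as deposited (filled bars) and moved by 1 Mb (open bars). The 16228 common regions are the smallest class, and 52.2% of them lie at a gene start.

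The specific regions were not spread evenly over the chromosomes. ESC-specific regions made up 44.1% of the specific regions of all chromosomes together. Their share was lowest on chromosome 3, at 36.5%, and highest on chromosome 17, at 52.5%. On chromosome 11 it was 51.1% and on the X chromosome 50.9%.

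Both groups were also compared by 5 values per library, each with an exact permutation test. With 2 libraries against 2 there are 6 labelings, and the smallest two-sided p that the design allows is 0.333. All 5 comparisons reached this value, since the groups did not overlap in any of them, and none can pass 0.05. The share of peaks near a gene start was 13.2% and 13.1% in MEF and 16.3% and 16.9% in ESC. The median peak width was 552 and 554 bp in MEF and 490 and 474 bp in ESC. The share of peaks on X was 2.22% and 2.21% in MEF and 2.49% and 2.42% in ESC. The difference in the share near gene starts, -3.42 percentage points for MEF minus ESC, became 1.35 when the 20000 peaks with the highest score of each list were used. The difference in median width, 71 bp, became -55.8 bp with the peaks of q-value at most 0.01. Both directions thus depend on which peaks are used.

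The KLF4 lists, which the rule did not use, separated the groups by more than their spread. KLF4 regions found in both libraries of serum ESC were overlapped by 7.96% and 7.98% of the MEF H3K27ac peaks and by 15.9% and 16.2% of the ESC H3K27ac peaks. The ESC share was higher in both libraries, and the exact permutation p was 0.333 here too.

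At the level of genes, 7535 of 21631 protein-coding genes (34.8%) had more MEF-specific than ESC-specific regions around them, and 9195 (42.5%) had more ESC-specific ones. With the 20000 top peaks of each list the order turned, with 5982 genes on the MEF side and 5376 on the ESC side. It also turned with a q-value limit of 0.01 (8842 and 7105), without MEF replicate 1 (9142 and 8027) and without MEF replicate 2 (9160 and 8050). The median gene had 1 region of each class, and 95% of genes had at most 8 MEF-specific, 9 ESC-specific or 6 common regions. Both kinds of specific region lay around 8945 genes, or 41.4%. For 17274 genes the promoter table gives a start. Of these, 4.71% had a start marked in both MEF libraries and no ESC library, 5.11% in both ESC libraries and no MEF library, and 50.4% in all 4.

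The promoters under the classes are shown first for genes whose state at the start differs between the end points. Nanog and Pou5f1, homeodomain factors of pluripotency, and Zfp42 (Rex1), a zinc-finger protein used as a marker of naive ESC, were marked at the start in both ESC libraries and no MEF library. Col1a2, a chain of type I collagen, Acta2, smooth-muscle actin, the chemokine gene Cxcl15 and Dclk1, a microtubule-associated kinase, were marked in both MEF libraries and no ESC library. Gapdh, the glycolytic enzyme, was marked in all 4. Each line runs 5′ to 3′ on the strand of the gene from 250 bases before the start to 50 bases after it, from RefSeq on GRCm38.p6, the assembly known as mm10. Capitals mark TGANTCA (the core bound by AP-1 factors), ATTTGCAT (the octamer bound by POU factors), CCNCNCCC (a form of the C-rich element bound by KLF factors) and TATAAA (the TATA element) on either strand, where matches of 1 motif may overlap.
Nanog, chr6:122707315-122707614 (plus strand): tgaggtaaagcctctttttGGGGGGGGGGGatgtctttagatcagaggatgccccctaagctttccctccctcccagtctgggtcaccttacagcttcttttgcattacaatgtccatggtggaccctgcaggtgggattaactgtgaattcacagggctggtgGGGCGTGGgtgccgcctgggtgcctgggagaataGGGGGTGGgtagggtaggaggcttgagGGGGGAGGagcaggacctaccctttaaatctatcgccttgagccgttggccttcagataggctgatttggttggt
Zfp42, chr8:43306960-43307259 (minus strand): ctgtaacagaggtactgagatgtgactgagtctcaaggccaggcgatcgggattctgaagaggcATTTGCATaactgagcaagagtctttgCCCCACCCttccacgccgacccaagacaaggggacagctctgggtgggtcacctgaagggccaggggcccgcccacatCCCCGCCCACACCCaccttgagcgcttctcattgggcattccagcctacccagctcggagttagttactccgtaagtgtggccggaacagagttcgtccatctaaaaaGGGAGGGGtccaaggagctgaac
Pou5f1, chr17:35505782-35506081 (plus strand): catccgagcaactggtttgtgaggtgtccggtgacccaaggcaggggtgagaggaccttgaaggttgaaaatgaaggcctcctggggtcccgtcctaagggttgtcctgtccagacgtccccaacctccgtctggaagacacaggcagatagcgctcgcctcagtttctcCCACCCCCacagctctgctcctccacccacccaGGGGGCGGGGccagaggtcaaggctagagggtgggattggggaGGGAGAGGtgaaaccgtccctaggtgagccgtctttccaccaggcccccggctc
Col1a2, chr6:4505368-4505667 (plus strand): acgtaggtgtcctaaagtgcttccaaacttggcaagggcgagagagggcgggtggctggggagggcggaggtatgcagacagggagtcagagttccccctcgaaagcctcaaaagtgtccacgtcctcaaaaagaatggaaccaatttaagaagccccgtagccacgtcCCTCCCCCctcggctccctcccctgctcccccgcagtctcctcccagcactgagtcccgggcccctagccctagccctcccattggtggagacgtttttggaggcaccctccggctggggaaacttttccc
Acta2, chr19:34255324-34255623 (minus strand): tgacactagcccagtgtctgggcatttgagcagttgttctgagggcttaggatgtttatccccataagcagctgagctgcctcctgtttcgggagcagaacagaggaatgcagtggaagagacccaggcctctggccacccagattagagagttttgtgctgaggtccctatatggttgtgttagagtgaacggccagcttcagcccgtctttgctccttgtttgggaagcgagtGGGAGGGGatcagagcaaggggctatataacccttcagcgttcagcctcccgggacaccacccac
Cxcl15, chr5:90794284-90794583 (plus strand): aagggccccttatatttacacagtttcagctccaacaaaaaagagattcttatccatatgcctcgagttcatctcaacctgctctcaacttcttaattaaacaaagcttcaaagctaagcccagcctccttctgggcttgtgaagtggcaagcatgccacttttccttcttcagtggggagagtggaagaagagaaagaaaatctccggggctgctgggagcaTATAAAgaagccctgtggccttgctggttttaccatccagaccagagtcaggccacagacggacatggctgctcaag
Dclk1, chr3:55461478-55461777 (plus strand): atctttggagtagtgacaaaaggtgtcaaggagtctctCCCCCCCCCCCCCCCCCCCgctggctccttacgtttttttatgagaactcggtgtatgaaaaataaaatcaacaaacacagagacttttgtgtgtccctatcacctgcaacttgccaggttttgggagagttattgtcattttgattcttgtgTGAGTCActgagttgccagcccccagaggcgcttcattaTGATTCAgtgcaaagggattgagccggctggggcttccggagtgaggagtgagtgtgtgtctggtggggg
Gapdh, chr6:125165724-125166023 (minus strand): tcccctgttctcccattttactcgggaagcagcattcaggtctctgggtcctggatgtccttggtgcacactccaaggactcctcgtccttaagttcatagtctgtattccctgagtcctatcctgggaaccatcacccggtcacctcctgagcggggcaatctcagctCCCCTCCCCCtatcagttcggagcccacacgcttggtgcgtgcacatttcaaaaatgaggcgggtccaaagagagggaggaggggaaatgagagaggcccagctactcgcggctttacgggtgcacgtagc

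The printed promoters differ in what they hold. Zfp42 has 1 octamer and 4 C-rich matches, the Nanog start shown has 7 C-rich matches and Pou5f1 has 4. The Dclk1 start shown has 2 AP-1 cores and 12 overlapping C-rich matches, and Cxcl15 has 1 TATA element. Over all 21045 starts, 57.1% of promoters held at least 1 C-rich match. Nanog, Pou5f1 and Dclk1 each have 2 starts in the table, and the one shown was chosen after the matches were seen. The start of Nanog that is not shown has 6 C-rich matches, that of Dclk1 has 1 and no AP-1 core, and that of Pou5f1 has no match of any of the 4 motifs. No match says only that these letters are absent from the 300 bases.

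Promoters marked in MEF alone were poorer in CpG than those marked in ESC alone, and both were poorer than those marked in all 4 libraries. The median number of CpG per 300 bases was 7 in the 1141 MEF-only starts, 13 in the 1119 ESC-only starts, 23 in the 10355 starts marked in all 4 and 3 in the 7111 starts marked in none. Median GC content was 54.0%, 59.0%, 62.3% and 47.0% in the same order. MEF-only promoters held TGANTCA in 11.7% of cases, ESC-only promoters in 5.09% and all-4 promoters in 4.02%, against 7.04% of all promoters. Unmarked promoters held it in 10.9% of cases. ATTTGCAT was found in 2.06% of ESC-only (23 starts), 1.31% of MEF-only (15 starts) and 1.34% of all-4 promoters, against 1.68% of all. Unmarked promoters held it in 2.31% of cases, more often than ESC-only ones. CCNCNCCC was found in 68.1% of ESC-only and 57.1% of MEF-only promoters, in 70.9% of those marked in all 4 and in 33.2% of unmarked ones. TATAAA was in 12.9% of the MEF-only promoters, in 9.38% of the ESC-only and in 5.73% of the all-4 promoters, against 23.9% of unmarked ones. These shares are a description without a test, and the part of base composition in them was not tested.

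Ranked by MEF-specific regions, the leading loci were long genes. For 4357 genes the promoter table gives no start, and the window was the gene body extended by 50 kb at both ends, which favours long genes. The first 12 loci of this ranking included Atxn1 (55 regions), Dlc1 (48), Slc14a2 (45), Adam12 (45), Ldlrad4 (41), Adamtsl1 (36), Antxr1 (34), Ank3 (31), Psd3 (31), Farp1 (30) and Ak5 (30), and none of these has a start in the table. Adam12, at chr7:133883199-134225097, codes for a membrane metalloprotease and Antxr1, at chr6:87133853-87335809, for a collagen-binding receptor. Around Antxr1, peaks covered 45.4 and 45.6 kb in the MEF libraries and 0.538 and 0.503 kb in the ESC libraries. Around Atxn1, they covered 91.9 and 92.9 kb in MEF against 4.94 and 4.16 kb in ESC. Dlc1 had 7 common regions, with 37.8 and 35.7 kb in ESC beside 85.4 and 88.2 kb in MEF.

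Among genes with a start in the table, a ranking added after the window lengths were seen, the windows were mostly shorter. Filip1l, Cxcl15 and Cald1 led with 26 MEF-specific regions each. The surroundings of Cxcl15, at chr5:90794534-90803067, take in the chemokine genes Cxcl5, Ppbp, Pf4, Cxcl3 and Cxcl1, whose products attract white blood cells or are stored in platelets. Peaks there covered 56.4 and 57.9 kb in the MEF libraries and 1.77 and 1.59 kb in the ESC libraries. Around Cald1, the gene of the actin-binding protein caldesmon, they covered 68.2 and 69.0 kb in MEF and 20.5 and 16.0 kb in ESC. The loci were ranked with these same lists, so the coverages are a description.

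Of the other loci of this ranking, Mrtfa, at chr15:81012281-81190736, a co-activator of serum response factor that senses free actin, had 24 MEF-specific and 2 ESC-specific regions. Sorbs2, an adaptor of actin structures, had 22 and 0, and Ablim1, an actin-binding LIM protein, 19 and 10. Col5a1, a chain of type V collagen, had 19 and 0. Arhgdib, which lies beside Mgp, the gene of the matrix Gla protein, also had 19 and 0. Foxp1, a forkhead factor, had 19 and 4. The locus led by 4930432M17Rik, which neighbours F3 (tissue factor, the starter of coagulation), had 20 and 0.

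Dclk1 and the Hoxb cluster had equal numbers of MEF-specific regions and different values in the day lists. Dclk1, at chr3:55242303-55539068, had 23 MEF-specific regions and no peak in either ESC library within its surroundings, against 28.5 and 29.9 kb in MEF. The Hoxb genes, here named by Hoxb4 at chr11:96318267-96321638, code for homeodomain factors of body position. Their surroundings held 23 MEF-specific regions, with 33.9 and 34.5 kb in MEF and 2.69 and 2.19 kb in ESC. Of these 23 regions, 21, 19 and 18 had an H3K27ac peak in the 3 day 3 libraries, 4, 3 and 9 at day 6, and 3 and 11 at day 9. Of the 23 regions at Dclk1, 2, 1 and 1 had one at day 3. Over all MEF-specific regions, 12.1% to 17.3% had a peak in the day 3 libraries, 1.36% to 3.39% at day 6 and 8.09% to 8.55% at day 9. This pair was singled out after the values were seen.

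**Figure D2:**
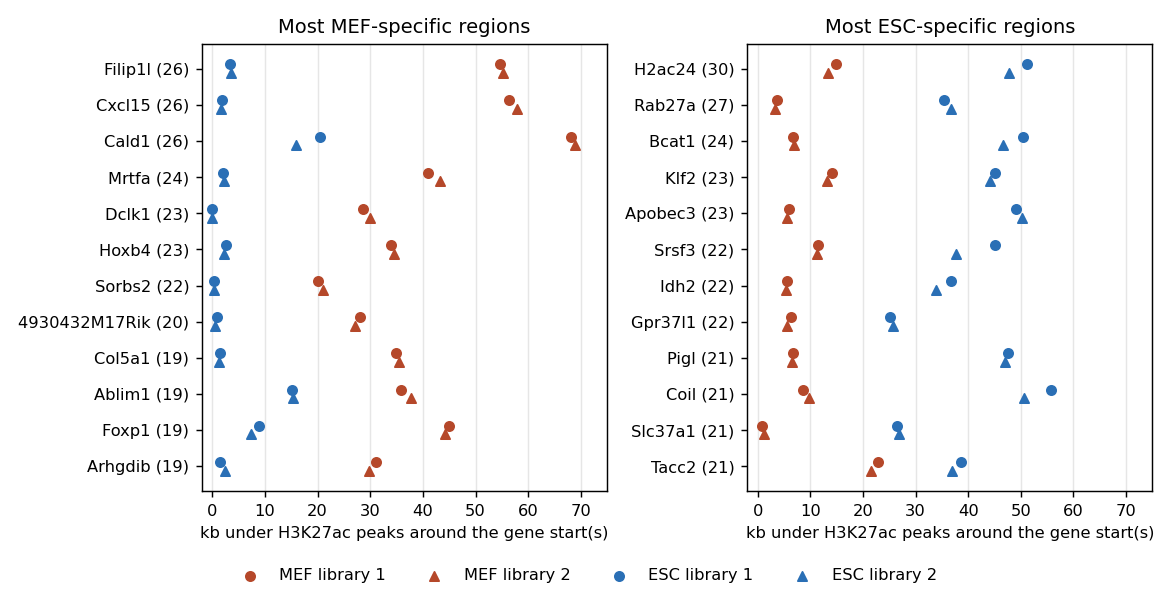
Length covered by H3K27ac peaks (kb, x axis) in the surroundings of the 12 leading loci among genes with a given start, for MEF-specific (left) and ESC-specific regions (right). Numbers in brackets are the regions of that class, and points are single libraries. The loci were chosen by these same peak lists, so the separation of the groups follows from the choice; coverage in the other group ranges from none at Dclk1 to 22.9 kb at Tacc2.

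Ranked by ESC-specific regions, the first 12 loci included Lamc1 (34), Arhgap26 (34), Cacna1a (33), Rbpms (32), Dym (30), H2ac24 (30), Zfp704 (29), Akap12 (29), Rab27a (27), Rab11fip4 (25) and Mta3 (24). Lamc1, at chr1:153218922-153332786, codes for the laminin gamma 1 chain of basement membranes. Its surroundings had 62.2 and 60.3 kb under peaks in the ESC libraries and 25.6 and 25.5 kb in the MEF libraries. Mta3, a subunit of the NuRD repressor complex, had 49.5 and 45.2 kb in ESC against 13.9 and 13.6 kb in MEF. With a q-value limit of 0.01 the balance of MEF-specific minus ESC-specific regions went from -31 to -15 at Lamc1, from -26 to -12 at Cacna1a, from -21 to -10 at Zfp704 and from -24 to -14 at Rbpms. It went from -28 to -17 at Akap12, from -22 to -14 at Rab11fip4 and from -18 to -11 at Mta3. At Rab27a it moved less, from -27 to -20. Arhgap26, whose window is 875 kb long, also had 28 MEF-specific regions. Its balance turned towards MEF, by 6 regions, with a q-value limit of 0.01, and by 3 with the top 20000 peaks. Without MEF replicate 1 or MEF replicate 2 it turned by 16 and 6 regions.

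Among genes with a given start, a histone gene cluster had the most ESC-specific regions. The surroundings of H2ac24, at chr13:21833024-21833475, hold genes for H1, H2A, H2B, H3 and H4 that are used during DNA replication. They contained 30 ESC-specific and no MEF-specific region, with 51.1 and 47.8 kb under peaks in ESC and 14.9 and 13.3 kb in MEF. Of the 30 regions, 9, 11 and 9 had an H3K27ac peak at day 3, 0, 0 and 3 at day 6, and 7 and 6 at day 9. Over all ESC-specific regions, 5.99% to 9.13% had a peak in the day 3 libraries, 2.87% to 7.13% at day 6 and 24.5% to 25.3% at day 9. Histone genes are near-identical copies, and how the authors' mapping treated reads that fit several copies is not given in the sources used here.

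Of the 12 ESC loci with a given start, Klf2 is the one that is in the naive pluripotency list. Rab27a, a GTPase of vesicle transport whose neighbour Khdc3 codes for a protein of oocytes and ESC, had 27 ESC-specific and no MEF-specific region. Its coverage was 35.3 and 36.8 kb in ESC and 3.65 and 3.38 kb in MEF. Klf2, a KLF factor of the naive network at chr8:72319062-72321654, had 23 ESC-specific and 2 MEF-specific regions, with 45.1 and 44.2 kb in ESC and 14.1 and 13.2 kb in MEF. Bcat1, an aminotransferase of branched-chain amino acids, had 24 ESC-specific and 1 MEF-specific region. Apobec3, a cytidine deaminase that restricts retroviruses, had 23 and 0, with neighbours that include the Polycomb genes Cbx6 and Cbx7.

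Of the remaining 7 loci, Srsf3, a splicing factor beside the cell-cycle inhibitor gene Cdkn1a, had 22 ESC-specific regions. Idh2, the mitochondrial isocitrate dehydrogenase, and Gpr37l1, which lies beside the epithelial factor gene Elf3, also had 22. Pigl (beside the co-repressor gene Ncor1), Coil (the Cajal body protein coilin), Slc37a1 and Tacc2 had 21 each. Of the 12 loci, Slc37a1, at chr17:31295135-31350709, was the only one without a common region and the only one with a start marked in ESC alone. Peaks covered 26.6 and 26.8 kb there in ESC, and 0.916 and 1.30 kb in MEF. With a q-value limit of 0.01 the balance of MEF-specific minus ESC-specific regions went from -21 to -9 at both Klf2 and Idh2, from -20 to -8 at Gpr37l1, from -21 to -11 at Coil and from -23 to -13 at Apobec3. It went from -23 to -14 at Bcat1 and from -15 to -8 at Tacc2, and moved less at Slc37a1, from -21 to -17.

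The size of the balance depended on the setting at the loci of both classes. With the top 20000 peaks it shrank by over 1.5 times at all 24 MEF loci of the 2 rankings, to between 0 at Hoxb4 and 14 at Atxn1. At 21 of the 22 ESC loci it shrank likewise, with -9 at Rbpms as the lowest value, and at Arhgap26 it turned. Without MEF replicate 1 it grew by over 1.5 times at 13 of the 24 MEF loci, and without MEF replicate 2 at 12. Atxn1 then went from 52 to 82 and 76, Cald1 from 20 to 36 in both cases, and Ablim1 from 9 to 20 and 21. Ablim1 was at 4 and 6 without ESC replicate 1 and 2, and Ank3 from 28 to 17 without ESC replicate 2. Without ESC replicate 1 or 2 the balance grew by over 1.5 times at 10 and 15 of the 22 ESC loci, with Lamc1 going from -31 to -52 and -46, and Cacna1a from -26 to -46 and -51. The q-value limit moved 15 ESC loci and no MEF locus by over 1.5 times towards 0, and turned Arhgap26. With 25 kb to each side the balance was smaller by over 1.5 times at 11 MEF and 13 ESC loci, with Foxp1 going from 15 to 1. Arhgap26 was the only one of these loci to change direction under these settings.

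The loci with most common regions had between 12 and 16 of them over both rankings. Aurkb, the mitotic kinase at chr11:69045624-69051664, led with 16 common regions, 0 MEF-specific and 2 ESC-specific ones and neighbours such as Per1, Hes7 and Vamp2. Ctif had 14, and Cic, Cd248, Gm37013 (in the protocadherin cluster) and Wdr24 had 13 each. The Ctif window also held 22 MEF-specific and 13 ESC-specific regions, with 95.1 and 99.6 kb under peaks in MEF against 41.8 and 42.5 kb in ESC. Of the 16 common regions at Aurkb, 13, 15 and 16 had a peak at day 3, 10, 9 and 12 at day 6, and 16 and 15 at day 9. Over all common regions, 74.1% to 81.9% had a peak in the day 3 libraries, 58.2% to 67.0% at day 6 and 83.9% to 85.1% at day 9.

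Region counts depend on how many peaks and libraries enter the rule: leaving out 1 library of a group lets more regions pass as specific to it. Medians that moved by over 1.5 times with stricter peaks or without 1 library are given with each list. The gene lists that follow were put together with earlier results of these data known, so their directions are a description. Neighbouring members such as Dppa2 and Dppa4, Lefty1 and Lefty2, Col4a1 and Col4a2 or Dcn and Lum share regions. Each count is read against the 34.8% of all genes on the MEF side and 42.5% on the ESC side, where the median difference is 0.

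All 23 genes of the naive pluripotency network had more ESC-specific than MEF-specific regions, with a median difference (MEF minus ESC) of -10. The median was -6 with a q-value limit of 0.01, -3 with the top 20000 peaks, -17 without ESC replicate 1 and -18 without ESC replicate 2. Klf2 (2 MEF-specific and 23 ESC-specific regions), Trim71 (0 and 20), an RNA-binding protein of early embryos, Tbx3 (1 and 20), a T-box factor, and Prdm14 (1 and 20), a repressor of the primed state, differed most. Around Tbx3, peaks covered 6.48 and 6.45 kb in MEF and 48.2 and 50.2 kb in ESC. Klf4 differed least, with 1 and 2 regions and 7.21 and 7.22 kb in MEF against 9.37 and 9.11 kb in ESC. It was singled out after its values were seen. Of the 15 members with a given start, 10 were marked at it in ESC alone and 3 (Klf2, Sox2 and Klf4) in all 4 libraries.

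The 12 marker genes of ESC, of which all but Fgf4 belong to this network, lay on the ESC side. They largely repeat the network and were chosen with earlier results known, so they are no separate check of the label. Their median of -10 was -6 with the q-value limit, -3 with the top 20000 peaks, and -18 and -19 without ESC replicate 1 and 2. Esrrb, Zfp42, Dppa4, Fgf4 and Nr0b1 had no peak in either MEF library. Zfp42 had 22.8 and 20.2 kb in ESC, Nanog 43.3 and 39.1 kb and Pou5f1 31.5 and 29.6 kb. In MEF, Nanog had 6.31 and 5.76 kb and Pou5f1 7.99 and 8.29 kb.

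Of the 14 fibroblast markers, 13 lay on the MEF side, and Fn1 (fibronectin) was the exception with 6 MEF-specific and 8 ESC-specific regions. The median of 8.5 was 2 with the top 20000 peaks and 15 without MEF replicate 2. Prrx1, a homeodomain factor of limb mesenchyme, had 13 and 0 regions, with 36.4 and 38.2 kb in MEF and 0.243 and 0 kb in ESC. Col1a2 and Postn had no peak in either ESC library. Summed over the 14 markers, peaks covered 274.5 and 274.1 kb in MEF and 46.3 and 44.4 kb in ESC, of which Fn1 made up 24.6 and 24.3 kb. The part of feeder cells in the ESC lists was not tested.

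All 14 collagen genes lay on the MEF side, with a median difference of 9, which was 3 with the top 20000 peaks and 14.5 without MEF replicate 2. Col5a1 (19 and 0), Col4a1 and Col4a2 (18 and 1 in a shared window) and Col5a2 (15 and 0) differed most. Of the 11 members with a given start, 8 were marked there in MEF alone and 3 in all 4 libraries. Col8a1, Col6a2, Col16a1, Col1a2, Col6a1 and Col11a1 had no peak in either ESC library. The Col1a1 locus carries the inducible cassette in the MEF but not in V6.5. It had 11 MEF-specific and 4 ESC-specific regions, with 30.4 and 30.6 kb in MEF and 8.45 and 6.87 kb in ESC.

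Other matrix genes were mostly on the MEF side, 16 of 20, with 3 on the ESC side and a median difference of 9.5. This was 2 with the top 20000 peaks, and 14.5 and 15 without MEF replicate 1 and 2. Fbn2 (23 and 0) and Fbn1 (15 and 0), the fibrillins of elastic fibres, Lox (18 and 0), which cross-links collagen, and Dcn (16 and 1), the proteoglycan decorin, differed most. The 3 on the ESC side were Fn1, Sparc (5 and 7) and Timp1 (1 and 4), named after their values were seen.

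Of 16 genes of the TGF-beta pathway, which drives matrix production and opposes the epithelial state, 13 lay on the MEF side and 3 on the ESC side, with a median of 6. This was 2 with the top 20000 peaks, and 11.5 and 12 without MEF replicate 1 and 2. The receptor gene Tgfbr3 (26 and 1), the ligand gene Tgfb3 (16 and 0) and Ltbp1 (15 and 0), which stores the ligand in the matrix, led, before Ltbp2 (11 and 2). Around Tgfbr3 peaks covered 65.3 and 63.5 kb in MEF and 5.26 and 4.21 kb in ESC. Tgfb1, Smad7 and Bmp1 were on the ESC side.

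Transcription factors of mesenchyme had 18 of 20 members on the MEF side and a median of 5, which was 2 with the top 20000 peaks and 8 and 9 without MEF replicate 1 and 2. Foxp1 (19 and 4), Prrx1 (13 and 0), Twist2 (11 and 0) and the pair Osr1 and Zeb1 (11 and 1 each) differed most. Snai2 (2 and 4) and Tcf21 (0 and 1) were on the ESC side. Integrins and surface receptors of fibroblasts had 13 of 16 members on the MEF side and a median of 4. It was 1 with the top 20000 peaks, 2.5 without ESC replicate 2, and 7.5 and 9 without MEF replicate 1 and 2. The list was led by Egfr (19 and 0), the hyaluronan receptor Cd44 (15 and 0), Itgb1 (15 and 0) and Thy1 and Itga11 (a difference of 10 each). Cd44 had 27.2 kb in each MEF library and no peak in either ESC library.

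Contractile genes had 11 of 16 members on the MEF side and 4 on the ESC side. The median of 1.5 was 2.5 with the q-value limit, and 3.5 and 5 without MEF replicate 1 and 2. Of their 15 given starts, 13 were marked in all 4 libraries, and only Acta2 and Cnn1 in MEF alone. Cald1 (26 and 6), Acta2 (10 and 0), Vim (9 and 0) and Zyx (8 and 0) had more MEF-specific regions, and Myl9 (1 and 9) more ESC-specific ones. AP-1 factors, the leucine-zipper proteins whose core motif was searched above, had 6 of 12 members on the MEF side and 3 on the ESC side. Their median of 1 was 2.5 with the q-value limit, 0.5 without ESC replicate 2, and 2.5 and 3.5 without MEF replicate 1 and 2. Jun (13 and 0), Fos (8 and 1), Maff (9 and 2) and Fosl2 (9 and 2) differed most, while 9 of the 11 given starts were marked in all 4 libraries.

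Epithelial genes lay on the ESC side in 16 of 20 cases, with a median of -4. This was -1.5 with the q-value limit, -0.5 with the top 20000 peaks, and -7.5 without either ESC replicate. The protease gene St14 (0 and 12), the tight-junction genes Cldn4 (5 and 17) and Cldn3 (5 and 15) and the protease inhibitor gene Spint1 (0 and 10) differed most, together with Rab25 (0 and 10), a GTPase of epithelial cells. Of the 15 given starts, 12 were marked in ESC alone and none in all 4. Around Cdh1, the gene of E-cadherin, peaks covered 11.5 kb in each MEF library and 40.9 and 41.8 kb in ESC.

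Signalling genes of ESC were divided, with 11 of 20 on the ESC side and 8 on the MEF side. The Nodal antagonists Lefty2 (1 and 14) and Lefty1 (2 and 12), the ERK feedback inhibitor Spry4 (0 and 11) and the ETS factor Etv5 (0 and 10) lay on the ESC side. Stat3, the effector of LIF, had 8 MEF-specific and no ESC-specific region and was named after its values were seen. The list's median of -3.5 became 0.5 with a q-value limit of 0.01, -0.5 with the top 20000 peaks, -2 without MEF replicate 2, and -7.5 and -7 without ESC replicate 1 and 2. Of 8 genes of DNA methylation, 6 lay on the ESC side, among them Dnmt3b (0 and 10) and Tet2 (0 and 9). The maintenance genes Uhrf1 (3 and 11) and Dnmt1 (0 and 8) did so too, whereas Tet3 had 6 MEF-specific and no ESC-specific region. The median of this list was -7.5, and it was -4.5 with the q-value limit, -0.5 with the top 20000 peaks and -12.5 without ESC replicate 2.

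Housekeeping genes, taken as a reference, had 10 of 16 members on the ESC side and 4 on the MEF side, with a median of -1.5. This was 0 with the q-value limit, with the top 20000 peaks and without MEF replicate 1, and -3 and -3.5 without ESC replicate 1 and 2. All 12 given starts among them were marked in all 4 libraries. Hnrnpa1 (2 and 11), Polr2a (1 and 9), Rpl3 (3 and 9) and Eef1a1 (2 and 8) differed most.

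**Figure D3:**
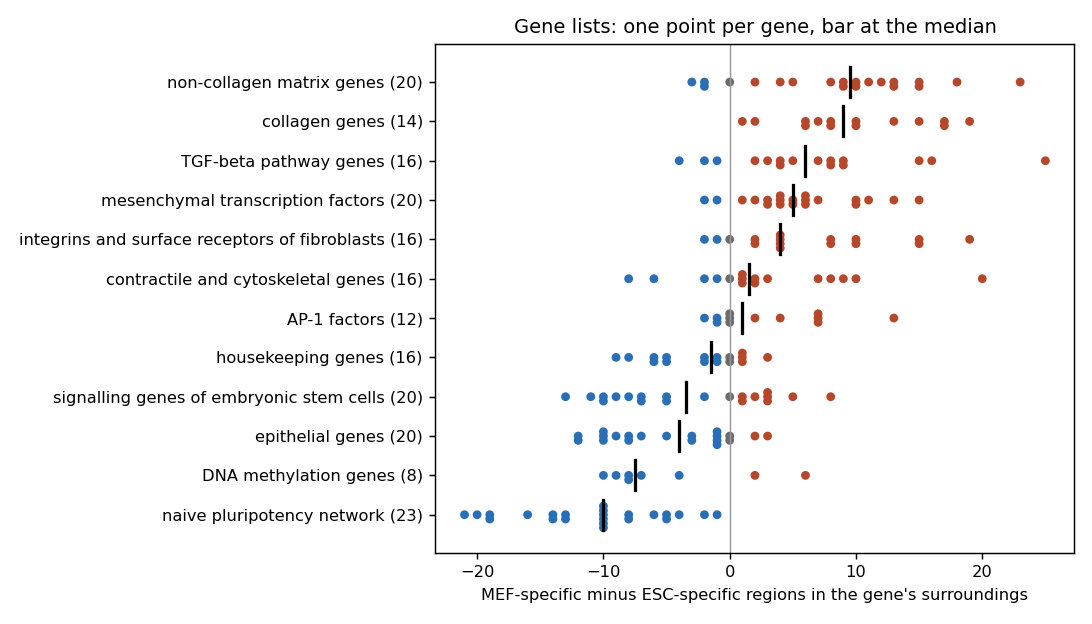
Number of MEF-specific minus ESC-specific regions in the surroundings of each gene (x axis), with 1 point per gene and a bar at the list's median, and list sizes in brackets. All 23 genes of the naive pluripotency network lie below 0 and all 14 collagen genes above it, while housekeeping genes have a median of -1.5.

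Markers of other cell types were read in the same way. Of 6 blood markers, 3 lay on the MEF side and 1 on the ESC side. Csf1r (6 MEF-specific and 0 ESC-specific regions) had 10.2 and 11.1 kb in MEF against 1.61 and 1.37 kb in ESC, in a window that overlaps Pdgfrb, a fibroblast marker on the MEF side (10 and 2). Spi1 (4 and 2) had 10.3 and 10.6 kb against 6.38 and 7.61 kb. Ptprc (2 and 0) had 4.32 and 3.58 kb in MEF and no peak in ESC. The highest coverage of the list in MEF, 12.2 and 11.8 kb, was at Cd14, which did not lie on the MEF side. In ESC the highest coverage, 9.25 and 9.18 kb, was at none of the 3 genes of the MEF side. The median of 1 was 1.5 with the q-value limit and 0 with the top 20000 peaks. It was 0.5 when every end-point list was cut to its 81231 peaks of highest score. It was 0 and 0.5 without ESC replicate 1 and 2, and 1.5 and 2 without MEF replicate 1 and 2. Lyz2 had no peak in any library and Adgre1 none in MEF. The part of blood cells in the MEF lists was not tested. Of 6 endothelial markers, 3 lay on each side, with Tie1 at 6 MEF-specific and Pecam1 at 21 ESC-specific regions. Their median of 1 turned to -1 without ESC replicate 1 or 2, and it was 0 with the top 20000 peaks and 2 without MEF replicate 1. Summed over the 6, coverage was 26.98 and 28.13 kb in MEF and 42.0 and 39.6 kb in ESC. Without Pecam1 the direction turned, with 17.4 and 19.1 kb in MEF and 5.95 and 4.84 kb in ESC. Of 8 extra-embryonic markers, 5 lay on the ESC side and 1, Sox7 (4 and 2), on the MEF side, with a median of -2. This was -1 with the q-value limit, 0 with the top 20000 peaks, -3.5 without ESC replicate 1, and -0.5 and -1 without MEF replicate 1 and 2. Tfap2c (0 and 21) and Eomes (0 and 7) differed most, and Gata6 and Cdx2 had 1 region of each class. Of 6 neural markers, none lay on the MEF side and 5 on the ESC side, led by Olig2 (0 and 14) and Sox1 (0 and 6), whose starts were marked in both ESC libraries and no MEF library. Olig2 had 16.9 and 14.6 kb in ESC and no peak in MEF. The median of -5 was -0.5 with the top 20000 peaks and -8 without ESC replicate 2. Of 6 muscle markers, 2 lay on each side. Their median of 0 was 2 with the q-value limit, 0.5 with the top 20000 peaks or without either MEF replicate, and -1 without ESC replicate 2.

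The classes were then set against the H3K27ac lists of days 3, 6 and 9, which were not used to define them. Of the MEF-specific regions, 15.2% ± 2.76 had a peak at day 3 (SD, n = 3), 2.23% ± 1.04 at day 6 (n = 3) and 8.32% ± 0.325 at day 9 (n = 2). Lists moved by 1 Mb gave 3.29%, 1.5% and 4.28%. Of the ESC-specific regions, 7.71% ± 1.59, 4.55% ± 2.27 and 24.9% ± 0.577 had a peak on the same days. Of the common regions, 77.7%, 62.2% and 84.5% did. The day 6 lists are short, with a mean of 20246 peaks against 46343 at day 3 and 44740 at day 9, and the part of list length in the low day 6 values was not tested. The days also differ in sorting, and day 9 comes from batch EA-3702 alone.

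Specific regions at gene starts had a peak in the day lists more often than distal ones. For MEF-specific regions the difference between proximal and distal regions was 15.4 ± 7.74 percentage points over the 8 day libraries, positive in 8 of 8 (exact sign-flip permutation test, two-sided p = 0.00781, Benjamini-Hochberg adjusted p = 0.026 over 10 tests). At day 3, 30.9% of proximal and 14.5% of distal MEF-specific regions had a peak. At day 9 the values were 32.6% and 7.37%. For ESC-specific regions the difference was 7.85 ± 7.02 points, also positive in 8 of 8 libraries (exact p = 0.00781, adjusted p = 0.026). At day 9, 42.7% of proximal and 23.9% of distal ESC-specific regions had a peak, against 10.1% and 7.57% at day 3. The smallest p that 8 libraries allow is 0.00781. The test compares with a difference of 0, while the day lists themselves hold many of their peaks near gene starts. Moved lists were not read for proximal and distal regions apart. Therefore the test cannot say whether the difference exceeds that background.

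The size of this difference varied between libraries and with the settings. With any 1 of the 8 day libraries left out, both classes missed the threshold of 0.05 (adjusted exact permutation p = 0.0521), where 128 sign flips allow no p below 0.0156. The difference then lay between 6.07 and 8.73 points for ESC-specific and between 13.8 and 16.7 points for MEF-specific regions. Its mean was 10.4 points in batch DG-3458 and 20.4 in batch EA-3702 for MEF-specific regions, and 3.99 and 11.7 for ESC-specific regions. Both day 9 libraries are in EA-3702 and none in DG-3458, so these means differ in day as well as in batch. For ESC-specific regions the day 9 differences were 17.2 and 20.3 points. On the shared days they were 4.03 points in EA-3702 and 1.75 and 1.68 in DG-3458 at day 3, and 5.27 against 6.52 and 6.01 at day 6. For MEF-specific regions EA-3702 was higher on both shared days, with 21.5 points against 14.6 and 13.0 at day 3 and 9.60 against 7.59 and 6.31 at day 6. Each batch has 4 day libraries and its exact test cannot go below p = 0.125. With the top 20000 peaks of each end-point list the differences were 44.0 points for MEF-specific and 33.0 for ESC-specific regions. With proximal regions taken up to 2.5 kb from a start they were 9.78 and 4.07 points (exact permutation p = 0.00781 for each). Among regions of 500 to 1000 bp they were 12.7 and 8.59 points. The day lists hold 22.3% to 52.6% of their peaks near gene starts, and all 8 libraries are read over the same regions.

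**Figure D4:**
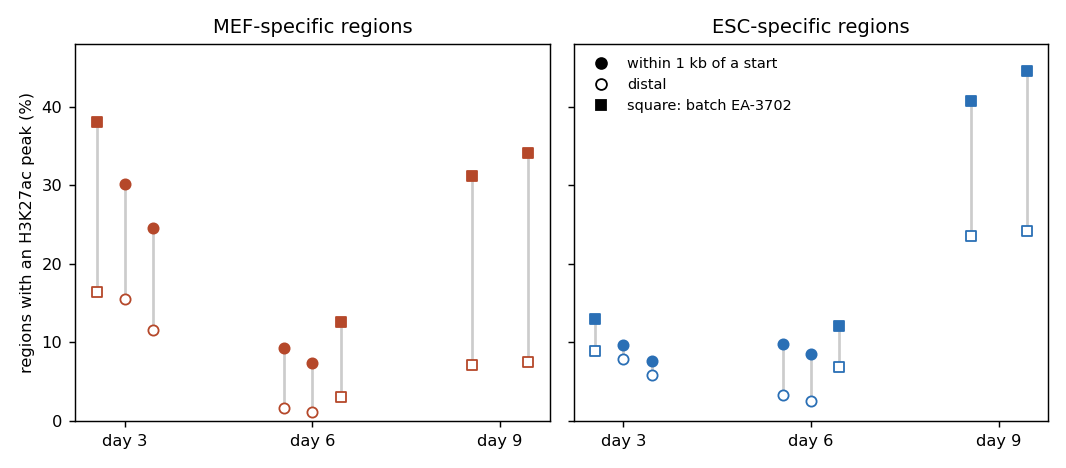
Percent of MEF-specific (left) and ESC-specific regions (right) with an H3K27ac peak in each library of days 3, 6 and 9, for regions within 1 kb of a gene start (filled) and distal regions (open), joined per library. Squares are libraries of batch EA-3702 and circles those of batch DG-3458, and in all 8 libraries the filled symbol lies above the open one in both panels.

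The starts of genes were read in the same lists. Starts marked in MEF alone had a peak within 1 kb in 37.4% ± 7.91 of cases at day 3 (n = 3), 11.5% ± 2.91 at day 6 (n = 3) and 34.8% ± 2.42 at day 9 (n = 2). Starts marked in ESC alone had one in 11.2% ± 3.22, 11.1% ± 2.22 and 46.9% ± 2.97. Starts marked in no end-point library had one in 1.21%, 0.539% and 3.82%.

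Regions in the densest surroundings were compared with the others over all day libraries. For ESC-specific regions, those in the surroundings of the 200 genes with most of them had a peak in the day lists more often by 0.942 ± 1.01 points (6 of 8 libraries, exact sign-flip p = 0.0391, adjusted p = 0.0977). For MEF-specific regions the difference was 1.17 ± 2.22 points (4 of 8 libraries, exact p = 0.242, adjusted p = 0.333). Neither passed the threshold of 0.05 after adjustment. These means pool days of unlike sign: for MEF-specific regions the difference was 3.81 points at day 3 (18.7% against 14.9%, n = 3), -0.0938 at day 6 (n = 3) and -0.880 at day 9 (n = 2). For ESC-specific regions it was 1.91, 0.723 and -0.187 points. The ESC value turned to -0.238 points without ESC replicate 1 and was 0.146 points without ESC replicate 2, and it passed with a q-value limit of 0.01 (0.708 points, adjusted exact p = 0.0195) and with the top 20000 peaks (2.52 points, adjusted exact p = 0.0195). With the 500 genes with most regions it was 0.116 points (exact p = 0.719). Dense regions were also wider, with a median of 796 against 723 bp for ESC-specific and 894 against 789 bp for MEF-specific regions, and the part of width was not tested.

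At the leading loci the day lists can be read region by region. The 12 MEF loci with a given start held 266 MEF-specific regions, of which 76, 73 and 54 had a peak at day 3, 10, 7 and 15 at day 6, and 18 and 30 at day 9. The 12 ESC loci held 277 ESC-specific regions, of which 23, 28 and 17 had a peak at day 3, 7, 8 and 13 at day 6, and 50 and 48 at day 9. At day 9 these were 18.1% and 17.3%, beside 24.5% and 25.3% of all ESC-specific regions. The 12 ESC loci of the ranking over all genes lay on the other side, with 27.8% and 29.8% of 356 regions at day 9. At day 3 these loci had 18.0%, 18.8% and 14.0%, and the ESC loci with a given start 8.30%, 10.1% and 6.14%. Of all ESC-specific regions, 9.13%, 8.01% and 5.99% had a peak at day 3. The MEF shares at day 3 were 28.6%, 27.4% and 20.3%, beside 17.3%, 16.2% and 12.1% of all MEF-specific regions. In the ranking over all genes they were 23.9%, 21.9% and 19.1% of 456 regions. The Hoxb surroundings held 21, 19 and 18 of the 76, 73 and 54 regions marked at day 3. At day 6 the MEF shares were 3.76%, 2.63% and 5.64%, and 1.10%, 0.219% and 2.19% over all genes. Of all MEF-specific regions, 1.95%, 1.36% and 3.39% had a peak at day 6. The day 9 shares were 6.77% and 11.3%, and 4.61% and 4.82% over all genes, beside 8.09% and 8.55% of all MEF-specific regions. These are descriptions without a test. All 12 ESC loci with a given start had at least 1 ESC-specific region marked in each day 9 library, which is a low bar with 21 to 30 such regions per locus.

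The share of ESC-specific regions among those with a peak of KLF4, one of the delivered factors, rose from day 3 to ESC. Among specific regions with a KLF4 peak, this share was 52.0% and 56.8% at day 3, 69.6% and 75.5% at day 6, 80.6% and 80.3% at day 9, and 91.7% and 90.4% in serum ESC. No library of a stage overlapped those of the next. The slope was 11.8 percentage points per stage (exact permutation test over 2520 labelings, two-sided p = 0.000794, adjusted p = 0.00794, 8 libraries). This p is the smallest that the design allows. In 2i, which was not part of the fit, the share was 88.0% and 89.8%. Over all specific regions the ESC share was 44.1%.

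The classes were also read apart. MEF-specific regions with a KLF4 peak made up 8.66% and 5.05% of the class at day 3, 3.18% and 3.17% at day 6, 2.61% and 2.78% at day 9 and 1.05% and 2.07% in serum ESC. In serum ESC this was near the 1.73% found with moved lists. ESC-specific regions with a KLF4 peak made up 11.9% and 8.41% at day 3, 9.23% and 12.3% at day 6, 13.7% and 14.4% at day 9 and 14.7% and 24.7% in serum ESC. The serum ESC libraries come from batches of their own, so stage and batch cannot be told apart there. With labels permuted within batch, the slope was 11.8 points as before. The exact permutation p was 0.0417, the smallest that these 24 labelings allow, and the adjusted p was 0.104.

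**Figure D5:**
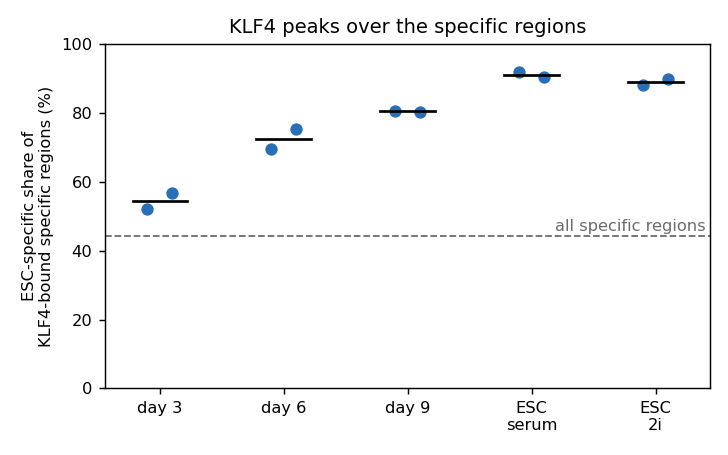
Share of ESC-specific regions among the MEF-specific and ESC-specific regions that have a KLF4 peak (percent, y axis), for each library (points) with the stage mean (bar). The share lies between 52.0% and 56.8% at day 3 and between 90.4% and 91.7% in serum ESC, and the dashed line gives the 44.1% of all specific regions.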

How the data were processed

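The ChIP-seq used single-end reads of formaldehyde-fixed chromatin, per the labels. The submitters' processing notes name cutadapt 1.8.1, Bowtie2 2.2.5, deepTools 2.3.6, MACS2 2.1.1 and the build mm10; settings and read depth are not given in the sources used here, so the precision of single peaks is unknown. Each list was deposited with a score, a fold enrichment ratio, a −log10 p-value and a −log10 q-value per peak, computed by the authors. Replicates have separate lists. Libraries of 13 inputs were not analysed here.

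Peaks on chromosomes 1 to 19 and X that overlap by at least 1 bp were merged. Gene surroundings reach 50 kb to each side of every start for 17274 genes with a start in the RefSeq promoter table, and to each side of the whole gene for the other 4357. Named were the 12 loci with most MEF-specific and most ESC-specific regions, the 6 with most common ones, at least 100 kb apart, and the 4 members of each gene list with the largest difference. Some loci and list members that this rule names are not reported here. All marker genes could be named, and other names outside this rule were chosen after their values were seen. No genome was used, so motifs were searched in promoters only, TATAAA being added after the data were seen. Members and lists were chosen with earlier results of these data known. Tests were exact permutations of samples or sign flips, adjusted by Benjamini-Hochberg over 10 tests. Replicate numbers did not pair MEF with ESC: the Jaccard index was 0.154 for MEF 1 with ESC 1, 0.152 for MEF 1 with ESC 2, 0.154 for MEF 2 with ESC 1 and 0.152 for MEF 2 with ESC 2. Alternatives changed the q-value limit, peak number, merging distance, windows, overlap and libraries. Scripts (Python 3.11.15, numpy 2.4.6, pandas 2.3.3, statsmodels 0.14.6) were tested on simulated data.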

Additional observations from a re-analysis of the deposited data

Results flagged for a closer look

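The difference between ESC-specific regions in the densest surroundings and the other ESC-specific regions was positive in every day 3 library (mean 1.91 percentage points, 1.40 to 2.86, n = 3). It was negative in both day 9 libraries (mean -0.187, from -0.223 to -0.150, n = 2). The day means differed by 2.099 points, and the difference was not tested. Day 6 also had positive values in all 3 libraries (mean 0.723, 0.271 to 0.951), 0.910 points above day 9, again without a test. For MEF-specific regions the day 3 values were positive (mean 3.81, 3.32 to 4.14) and the day 9 values negative (mean -0.880, from -0.990 to -0.770). These means differed by 4.69 points, which was not tested. Both day 9 libraries are of batch EA-3702. The day 3 library of that batch, 1 library, had 4.14 points (MEF-specific) and 1.40 points (ESC-specific). The part of batch in these differences was not tested.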

How the results depend on the processing

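The number of ESC-specific regions, 33835, became 22301 with a q-value limit of 0.01 and 21299 when peaks up to 500 bp apart were merged. Leaving out 1 end-point library gave 44062 to 65510 MEF-specific and 34783 to 55464 ESC-specific regions. With the top 20000 peaks per end-point list, an alternative chosen after seeing the data, there were 9412 MEF-specific, 8186 ESC-specific and 7352 common regions, and 5376 genes had more ESC-specific ones. The same peaks gave 1.35 points for the difference near gene starts, with the sign turned, and 2.52 points (adjusted exact permutation p = 0.0195) for dense against other ESC-specific regions. With the q-value limit these regions differed by 0.708 points (adjusted exact permutation p = 0.0195), and the difference in median width turned to -55.8 bp. Without 1 library the dense difference ranged from -0.238 to 1.11 points, the sign turning without ESC replicate 1.

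The proximal difference ranged from 6.07 to 9.19 points (ESC-specific) and from 12.4 to 18.6 (MEF-specific) without 1 library. Without any 1 day library its adjusted exact permutation p was 0.0521. Within batch DG-3458 it was 3.99 and 10.4, and within EA-3702 11.7 and 20.4 (adjusted exact permutation p = 0.312). The KLF4 slope of 11.8 had an adjusted exact permutation p of 0.104 within batch, where 24 labelings allow no exact p below 0.0417. With a replicate block for the numbers of MEF and ESC, the differences stayed the same (6607.5 peaks, 71 bp in width, -3.42 points near starts, -0.24 points on X, -8.10 points at KLF4 regions) and all 5 had an exact permutation p of 0.5 over 4 labelings; the numbers pair no samples.

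The median of the ESC signalling genes turned to 0.5 with the q-value limit, and that of endothelial markers from 1 to -1 without ESC replicate 1 or 2. The balance at Arhgap26, -6, turned to 6 with the q-value limit and without MEF replicate 2, to 16 without MEF replicate 1 and to 3 with the top 20000 peaks, and it was -20 without ESC replicate 2. Unknown depth limits what an absent peak shows. The cause of these changes was not tested.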
